A study of Mus musculus with 6 samples.

Results

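Solitary islands are CpG islands (CGIs) that stand far from others, with no other island of at least 3 array probes within 250 kb on either side. They were found from probe positions only. Array probes on chromosomes 1 to 19 whose starts lay no more than 500 bp apart were joined, runs of at least 3 probes were taken as islands, and each island was kept if the gap to the next island on both sides was at least 250 kb. By this rule 708 of 13441 islands were solitary. Of these, 707 had at least 3 probes free of outlier spots and were tested among 13430 islands. The solitary island that was not tested, chr13:117824979-117825248, had 3 probes of which 2 were usable.

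The data came from liver DNA of 3 Mdr2-KO and 3 Mdr2-/+ male mice on the FVB strain, all 12 months old, with 1 array per mouse. The Mdr2-KO mice lack both copies of Mdr2 (Abcb4) in all cells (line FVB.129P2-Abcb4tm1Bor), and the controls were heterozygotes from a cross of these mice with FVB/NJ, so that the controls also carried 1 knockout allele. The study compared the genotypes to learn how chronic inflammation of the liver, which follows from the loss of Mdr2, changes DNA methylation. Whole liver was used, so each value is a mixture of hepatocytes and all other liver cells, and a change within a cell type cannot be told apart from a change in the mixture.

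CpG islands are stretches of DNA rich in the dinucleotide CG, and many of them lie at gene starts. In most tissues most islands stay free of methylation, while CG sites elsewhere in the genome are mostly methylated at the cytosine. Methylation of an island at a gene start often goes with silencing of that gene. Gene-poor regions hold few islands, which is where an island without near neighbours is usually found. In MeDIP (methylated DNA immunoprecipitation) an antibody against 5-methylcytosine collects methylated fragments. The labels give Cy5 for the collected DNA and Cy3 for the total DNA (input) of that liver, and the value used below is the log2 ratio of MeDIP over input, set to a median of 0 on each array and averaged over the probes of an island. A level of 1 thus means a MeDIP signal 1 log2 unit further above input than at the median probe. The antibody captures fragments with more CG sites better, and the CG content of the islands was not analysed here, so levels of different islands are not percentages of methylation.

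The arrays of the 6 livers correlated at 0.944 to 0.990 across the islands, and the SD of the centred log2 ratios ranged from 1.52 to 1.83, the highest on Mdr2-/+ replicate 1. Replicate 1 of both genotypes shared a slide. Replicates 2 and 3 of Mdr2-/+ lay on another slide and replicates 2 and 3 of Mdr2-KO on another, so that slide cannot be told apart from genotype on these 4 arrays. The labels call the samples biological replicates, and their number limits the precision.

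The solitary islands were of ordinary size. They held a median of 6 probes (3 to 28) over a median of 721 bp (220 to 3593 bp), against 5 probes and 641 bp at the other islands. The median gap to the nearest island was 416 kb with quartiles of 311 and 632 kb, against 22.9 kb at the other islands, and 71 solitary islands were at least 1000 kb from any other. The probes of an island varied as much at both kinds, with a median SD within an island of 0.78 log2 units each. For 423 solitary islands the next island on at least 1 side was also solitary, and for 88 this held on both sides. Short sites of 1 or 2 probes, which the rule did not count as islands, lay within 250 kb of 87 solitary islands. Their share varied over the chromosomes, from 1.61% of the islands of chromosome 11 (19 of 1180) to 9.67% of those of chromosome 1 (73 of 755). At the limit of the rule, the island just inside (chr15:27968736-27970851, 250.014 kb from its neighbour) had a mean level of -0.49 in Mdr2-/+ and -0.62 in Mdr2-KO livers. The island just outside (chr8:67876099-67876828, 249.935 kb) had levels of -0.19 and -0.42.

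High MeDIP levels were less frequent at solitary islands than elsewhere. In the Mdr2-/+ livers 8.35%, 6.08% and 7.21% of the solitary islands had a level above 1, and in the Mdr2-KO livers 10.04%, 13.0% and 8.63%. Of the other islands, 17.7%, 14.2% and 14.7% were above 1 in Mdr2-/+ and 19.1%, 19.8% and 17.8% in Mdr2-KO livers. On each of the 6 arrays the share was thus lower at solitary islands, and the 2 ranges did not overlap. The mean difference was -8.32 percentage points (SD 1.05, n = 6 arrays; exact sign-flip permutation test, two-sided, p = 0.03125, the smallest that 6 arrays allow). The same islands were compared on each array, so this test measures how far the arrays agree, not the spread between islands. The level of 1 as a limit was chosen after the values had been seen. The difference stayed between -9.69 and -6.65 points under the 15 alternatives tried. For ratios divided by the SD of the array and for the authors' scores, the limit of 1 was in those units and not in log2 units.

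The difference lay mainly among the islands with the highest levels. Of the solitary islands 3.11% (22) had a mean Mdr2-/+ level above 3, against 8.72% (1110) of the others. When all islands were divided into 5 groups of equal size by their mean Mdr2-/+ level, the highest group held 10.7% of the solitary and 20.5% of the other islands. The lowest group held 19.9% of the solitary islands, and the group next to it held 25.3% of the solitary and 19.7% of the other islands. The histogram of levels shows a main peak at the same place for both and a smaller second mode at high levels that was lower at solitary islands.

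**Figure D1:**
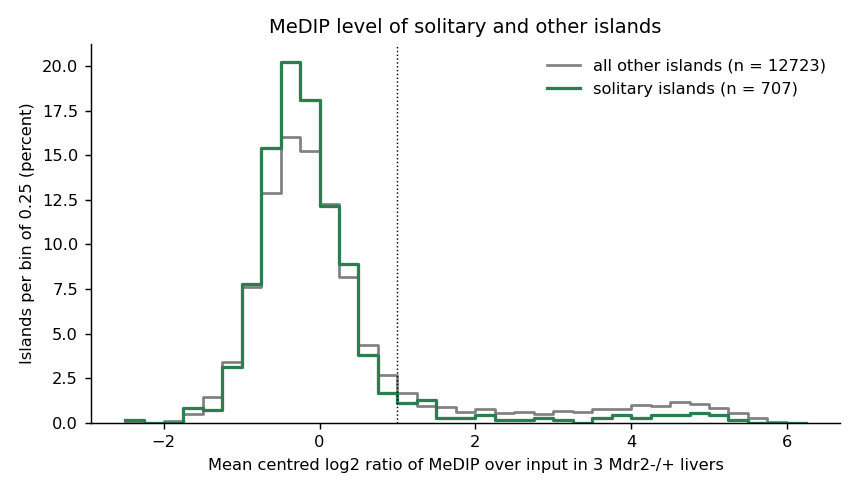
Distribution of the mean centred log2 ratio of MeDIP over input in the 3 Mdr2-/+ livers (x axis, bins of 0.25) as the percent of islands in each bin (y axis), for the 707 solitary islands (green) and the 12723 other islands (grey). The dotted line marks a log2 ratio of 1, above which lay 7.07% of the solitary and 15.3% of the other islands.

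Median levels differed less. The median over the solitary islands was -0.23, -0.24 and -0.22 in the Mdr2-/+ livers and -0.15, -0.16 and -0.18 in the Mdr2-KO livers. Over the other islands it was -0.08, -0.13 and -0.13 in Mdr2-/+ and -0.12, -0.15 and -0.12 in Mdr2-KO livers. Solitary islands were lower on each array, by -0.07 on average (SD 0.05, n = 6 arrays; exact sign-flip permutation test, two-sided, p = 0.03125, the smallest possible). This difference no longer passed the test under 7 of 15 alternatives, such as islands of at least 5 probes (-0.02, exact permutation p = 0.375) and loess within arrays (-0.06, exact permutation p = 0.0625). In the MeDIP channel alone the median of the solitary islands was lower by -0.06 (SD 0.06, n = 6 arrays, exact permutation p = 0.0625), and in the input channel it was higher by 0.02 (SD 0.01, exact permutation p = 0.03125). As with the share above 1, these tests measure how far the arrays agree on the same islands, not the spread between islands.

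The share of islands above 1 was lower at larger distances to the next island, up to 100 kb in every liver and up to the farthest class in the mean of the Mdr2-/+ livers. In that mean it was 21.2% among the 3986 islands with a neighbour within 10 kb, 14.7% at 10 to 50 kb, 9.72% at 50 to 100 kb and 9.28% at 100 to 250 kb. Among the solitary islands it was 7.73% at 250 to 500 kb (35 of 453), 6.56% at 500 to 1000 kb (12 of 183) and 4.23% above 1000 kb (3 of 71). In Mdr2-/+ replicate 1 alone it was 8.39% at 250 to 500 kb and 9.84% at 500 to 1000 kb. The decrease was steepest among islands with close neighbours, and the limit of 250 kb marked no step. In the mean of the Mdr2-KO livers the solitary classes had 10.6%, 9.29% and 12.7%, with no order by distance.

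**Figure D2:**
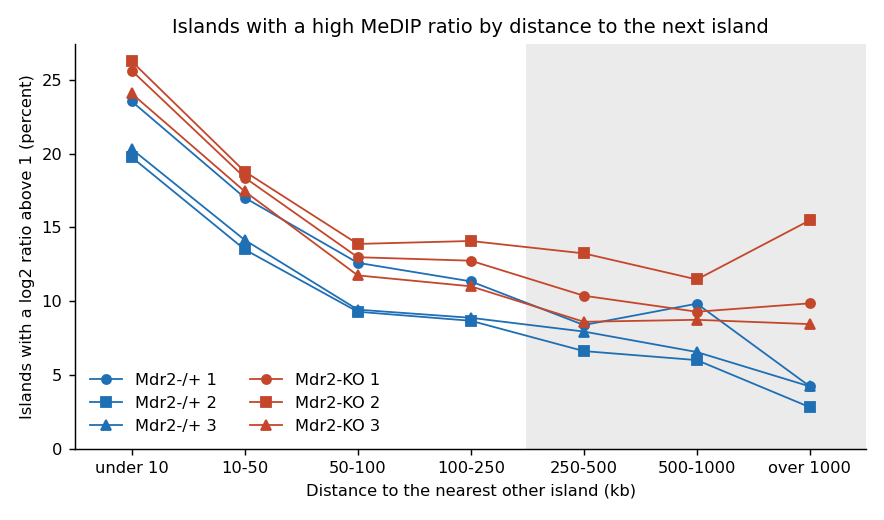
Percent of islands with a centred log2 ratio above 1 (y axis) by the distance to the nearest other island (x axis, kb) for each of the 6 livers, with Mdr2-/+ in blue and Mdr2-KO in red and a symbol for each replicate number. The shaded part holds the solitary islands. The blue lines end at 2.82% to 4.23% and the red lines at 8.45% to 15.5% in the 71 islands at the far right.

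Probe number moved with the level too, and its part in the difference was examined by class. Among islands of 3 probes 16.7% of the solitary ones had a mean Mdr2-/+ level above 1, against 24.7% of the others. The shares were 14.7% and 22.3% at 4 probes, 3.94% and 12.8% at 5 to 6 probes, 3.82% and 8.62% at 7 to 9 probes and 1.57% and 9.34% at 10 or more probes. Solitary islands thus had the lower share at every probe number. The 109 short sites of 1 or 2 probes near solitary islands had a median Mdr2-/+ level of 0.43 with 32.1% above 1. This was close to the 30.8% at the 1547 short sites elsewhere.

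The 5 solitary islands with the highest levels were about equally high in both genotypes. They were chr8:9207705-9208002, chr5:97632265-97632793, chr17:90996175-90997136, chr9:97174886-97175476 and chr1:69310105-69310485. At the first of these the livers had 6.02, 4.87 and 4.90 in Mdr2-/+ and 5.18, 5.07 and 5.04 in Mdr2-KO. At each of the 5 islands Mdr2-/+ replicate 1 had the highest value of all livers, and the genotypes overlapped. Their differences lay between -0.17 and 0.29 (standard errors 0.23 to 0.30, adjusted p from limma 0.658 or more). Without Mdr2-/+ replicate 1 the islands on chromosomes 17 and 1 were called higher by limma, at differences of 0.68 and 0.46.

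At the opposite end stood chr6:13019691-13020168, chr2:55252582-55252858, chr4:52459878-52460649, chr1:196320408-196321632 and chr3:22266728-22267268. The lowest, on chromosome 6, had -2.59, -2.32 and -2.03 in Mdr2-/+ and -2.06, -2.68 and -2.19 in Mdr2-KO livers. Its MeDIP signal was well above background, as the scanner software calls it, at 1 or 2 of its 3 probes on each array. Of these 5 the island on chromosome 2 was called between the genotypes and is described below with the rises.

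Relative to other islands, the level of solitary islands was higher in all 3 Mdr2-KO livers than in any Mdr2-/+ liver. The median of the solitary islands minus that of the others was -0.14, -0.11 and -0.09 in Mdr2-/+ and -0.03, -0.01 and -0.06 in Mdr2-KO livers. The genotypes did not overlap, and the difference of the means was 0.08 (exact permutation test over arrays, two-sided, p = 0.1, which is the smallest that 3 against 3 allow). In the pair of arrays on the shared slide it was 0.12. With a limit of 100, 500 or 1000 kb in place of 250 kb the difference was 0.04, 0.13 or 0.21, each with p = 0.1 in the exact permutation test and each without overlap of the genotypes. The genotypes overlapped with normexp (0.03, exact permutation p = 0.2), with the authors' scores (0.05 in units of that score, exact permutation p = 0.2) and at islands of 3 to 5 probes (0.04, exact permutation p = 0.3). In the MeDIP channel alone the genotypes overlapped too (0.07, exact permutation p = 0.2). In the input channel they did not (-0.01, exact permutation p = 0.1). The sets at limits of 100, 250, 500 and 1000 kb are nested and share islands. By itself the median of the solitary islands was higher by 0.07 in Mdr2-KO livers and did not overlap between the genotypes, while that of the other islands differed by -0.01 and did. This rise was not particular to solitary islands. The 3986 islands with a neighbour within 10 kb had medians of 0.01, -0.06 and -0.06 in Mdr2-/+ and 0.03, 0.03 and 0.02 in Mdr2-KO livers. At 50 to 100 kb the medians did not overlap either, with all Mdr2-KO livers lower.

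**Figure D3:**
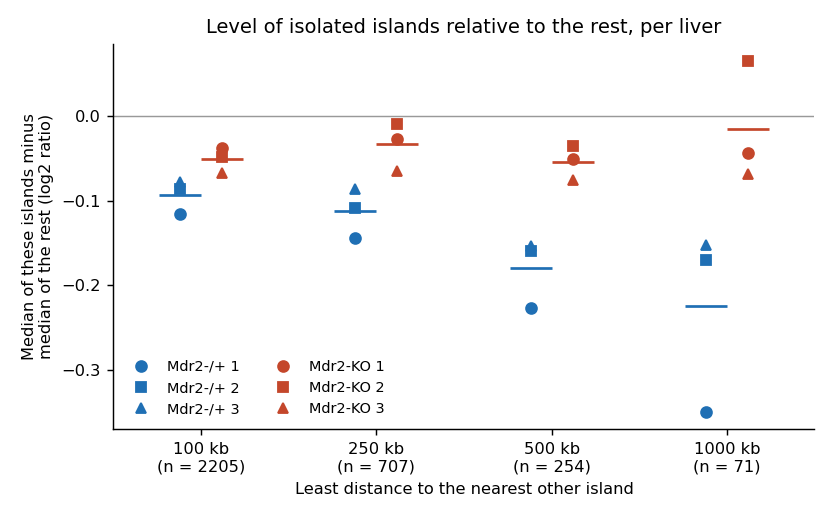
Median level of isolated islands minus the median of all remaining islands (y axis, log2 ratio) for each liver, by the least distance to the nearest other island (x axis, with the number of islands). Points are livers, with Mdr2-/+ in blue and Mdr2-KO in red, and lines are means of 3 livers. The means were -0.11 and -0.03 at 250 kb and -0.22 and -0.02 at 1000 kb.

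Of the 707 solitary islands 402 (56.9%) had a higher mean in Mdr2-KO livers, where 50.7% of all islands tested did. On the shared slide 397 (56.2%) were higher in the Mdr2-KO liver, against 45.5% of all islands. The genotypes did not overlap, with all Mdr2-KO livers higher, at 166 solitary islands (23.5%, where 16.0% of all islands tested did so) and, with all of them lower, at 64 (9.05%, where 10.7% did). The share above a level of 1 was higher in Mdr2-KO livers by 3.35 percentage points at solitary and by 3.38 at other islands (exact permutation p = 0.1 each). The gap of -0.03 points between these values did not exceed the spread of the livers (exact permutation p = 1). Of the solitary islands 47 had a mean above 1 in both genotypes, 27 in Mdr2-KO only and 3 in Mdr2-/+ only.

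At an adjusted p under 0.05 from limma, fitted over all islands, 35 solitary islands were called higher in Mdr2-KO livers (4.95%, where 4.4% of all islands tested were called) and 1 was called lower (0.141%, where 0.223% were). These shares lie near those of all islands. At an unadjusted p under 0.05 from limma, 143 were higher (20.2%, where 15.0% of all islands were) and 35 lower (4.95%, where 5.47% were). The study's threshold was a delta Z-score of 0.7. How its Z was computed is not given in the sources used here, and Z was taken as the log2 ratio in units of the SD of its array. By that measure 11 solitary islands were higher (1.56%, where 1.33% of all islands were) and 1 was lower (0.141%, where 0.0372% were). Among the 71 islands at least 1000 kb from any other, limma called 7 higher (9.86%).

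The count of calls depended on single livers and on the scaling. Without Mdr2-/+ replicate 1 limma called 122 solitary islands higher (17.3%, where 19.4% of all islands were called). Leaving out Mdr2-/+ replicate 2 gave 2 calls (0.283%, all islands 0.692%) and Mdr2-/+ replicate 3 gave 3 (0.424%, all islands 0.529%). Leaving out Mdr2-KO replicate 1 gave 1 (0.141%, all islands 0.238%), replicate 2 gave 7 (0.990%, all islands 1.15%) and replicate 3 gave 26 (3.68%, all islands 3.25%). The share of solitary islands was thus below that of all islands in 5 of these 6 fits, while it was above it with all livers. The split of calls was 35 higher and 1 lower as given above, 73 and 19 with quantile normalization between arrays (10.3% and 2.69%, where 7.29% and 2.79% of all islands were called), and 90 and 14 of 548 solitary islands with the values that the authors had normalized (16.4% and 2.55%, all islands 13.4% and 3.18%). With slide as a fixed block 0 were called higher (all islands 0.0521%). At an unadjusted p under 0.05 from limma 66 of 707 were higher in that fit, where 859 of all 13430 islands were.

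**Figure D4:**
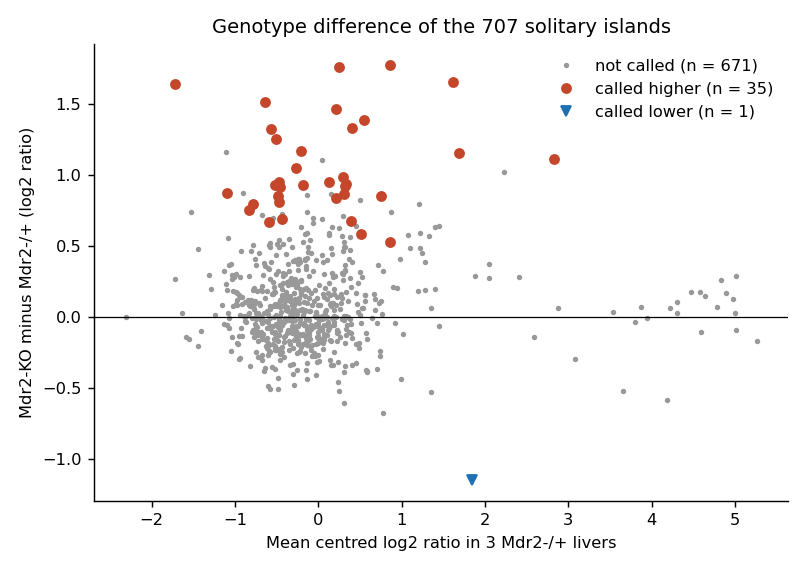
Difference of the mean centred log2 ratio, Mdr2-KO minus Mdr2-/+ (y axis), against the mean level in 3 Mdr2-/+ livers (x axis) for each of the 707 solitary islands. The 35 islands called higher (red) had Mdr2-/+ levels from -1.72 to 2.83, and the island called lower (blue) had 1.85.

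The 35 rises were spread over 16 chromosomes, with 1 to 4 on each. Their differences had a median of 0.94 (0.53 to 1.78), and 14 (40.0%) were of 1 or more. Over all 591 islands called higher the median was 0.95, and 272 (46.0%) were of 1 or more. In the Mdr2-/+ livers 17 of the 35 were below 0, and 15 crossed a level of 1 between the genotype means. Their median Mdr2-/+ level was 0.13, against -0.24 over all 707 solitary islands. The pair of livers on the shared slide differed by 0.41 to 1.64 at the 35, but both livers had entered the calls, so this is no separate check. Mdr2-KO replicate 2 had the highest value of its genotype at 31 of the 35, and Mdr2-KO replicate 3 had the lowest at 27. The islands nearest to the 35 had a median difference of -0.02. Of these neighbours 16 of 35 were above 0, where 50.7% of all islands tested were. Only 1 neighbour was called higher, where 4.4% of all islands were, and it was itself among the 35 (chr2:54251406).

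The largest rise was at chr1:128320192-128320498, an island of 3 probes 580 kb from its neighbour. Its level was 1.19, 0.49 and 0.90 in the Mdr2-/+ livers and 2.83, 2.56 and 2.52 in the Mdr2-KO livers. The 3 Mdr2-KO livers stood close together and above all the others. They differed by 1.78 (standard error 0.19; limma, adjusted p = 0.0063), and the differences of its probes lay between 1.67 and 1.88. Without Mdr2-KO replicate 1 its call ended at a difference of 1.68. Loess within arrays gave a difference of 0.58 and kept the call, as it did at chr2:54251406 (0.71) and chr3:56270629 (0.53), which are described below.

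A pair of called islands lay next to each other on chromosome 2, 1000 kb apart with no other island between them. At chr2:54251406-54252309, with 7 probes, the levels were 0.36, 0.03 and 0.38 in Mdr2-/+ and 1.77, 2.76 and 1.53 in Mdr2-KO livers. The genotypes differed by 1.76 (standard error 0.30; limma, adjusted p = 0.0201), and Mdr2-KO replicate 2 stood above the other livers of its genotype. At chr2:55252582-55252858, with 3 probes, the levels were -1.86, -1.33 and -1.97 in Mdr2-/+ and -0.41, 0.13 and 0.04 in Mdr2-KO livers. This was among the lowest solitary islands in the Mdr2-/+ livers and reached the middle of the range in the Mdr2-KO livers. The rise of 1.64 (standard error 0.21; limma, adjusted p = 0.00943) kept its call whichever liver was left out, and lost it with normexp, where it was 0.31. The MeDIP signal was well above background at 1 or 2 of 3 probes in Mdr2-/+ and at 2 or 3 in Mdr2-KO livers, and with probes well above background on every array the island could not be tested.

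An island of 4 probes at chr7:134775767-134776466 began at a high level. It had 2.38, 1.22 and 1.25 in Mdr2-/+ and 3.22, 3.44 and 3.16 in Mdr2-KO livers. The Mdr2-KO livers stood close together, and Mdr2-/+ replicate 1 stood above the other controls. The rise was 1.66 (standard error 0.29; limma, adjusted p = 0.0238) and 0.84 on the shared slide. With loess it was 0.89 and no longer called, the only one of the 11 named calls to end there.

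At 3 of the 10 islands with the largest rises all Mdr2-/+ livers were below the median probe of their array and all Mdr2-KO livers above it. At the first of them, chr5:127530799-127532165, with 12 probes, the livers had -0.64, -0.82 and -0.47 in Mdr2-/+ and 0.62, 1.64 and 0.36 in Mdr2-KO. They differed by 1.52 (standard error 0.30; limma, adjusted p = 0.0329), while the differences of single probes lay between 0.02 and 2.80. At chr6:110611426-110612115, with 7 probes and no island within 1816 kb, they had -0.79, -0.47 and -0.43 in Mdr2-/+ and 0.63, 1.32 and 0.34 in Mdr2-KO, a difference of 1.33 (standard error 0.24; limma, adjusted p = 0.0254). Here the pair on the shared slide differed by 1.43.

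The island at chr1:111810000-111810848, with 8 probes, was the most isolated of all called islands, 1881 kb from its nearest neighbour and 3186 kb from the next on the other side. Its livers had 0.37, -0.09 and 0.36 in Mdr2-/+ and 1.48, 2.31 and 1.25 in Mdr2-KO (difference 1.47, standard error 0.27; limma, adjusted p = 0.0268). A longer island at chr3:56270629-56272133, with 10 probes, had tight controls at 0.45, 0.35 and 0.40 and rose to 1.57, 2.25 and 1.38 (difference 1.33, standard error 0.21; limma, adjusted p = 0.0172). Neither overlapped between the genotypes, and in both Mdr2-KO replicate 2 was the highest.

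The remaining islands named for the size of their rise were chr19:36121718-36122367, with a rise of 1.39 (standard error 0.26; limma, adjusted p = 0.0282), and chr1:90901757-90902487, with 1.26 (standard error 0.28; limma, adjusted p = 0.0451). The latter, the remaining island with Mdr2-/+ livers below and Mdr2-KO livers above the median probe, had -0.17, -0.87 and -0.47 against 0.44, 1.36 and 0.46. It had 0.61 on the shared slide, the smallest there among the 10. The probes of each of the 10 islands were without exception higher in Mdr2-KO livers. The islands were chosen by the mean of these same probes, so this is no separate check. The island called lower, chr13:24287825-24288977, had all 9 probes lower, by -2.08 to -0.23. Of these 11 calls, 9 ended without Mdr2-/+ replicate 2, 9 without Mdr2-/+ replicate 3, 10 without Mdr2-KO replicate 1, 6 without Mdr2-KO replicate 2 and 3 without Mdr2-KO replicate 3, and no difference changed sign. With slide as a fixed block, whose difference is that of the shared slide, 10 calls ended although the rises were still 0.61 to 1.64. The fall on chromosome 13 kept its call in that fit, at -1.83. With normexp background correction all 11 ended. There chr1:128320192 had 1.90 and chr2:54251406 had 1.46, while chr2:55252582 had 0.31 and chr13:24287825 had -0.41.

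**Figure D5:**
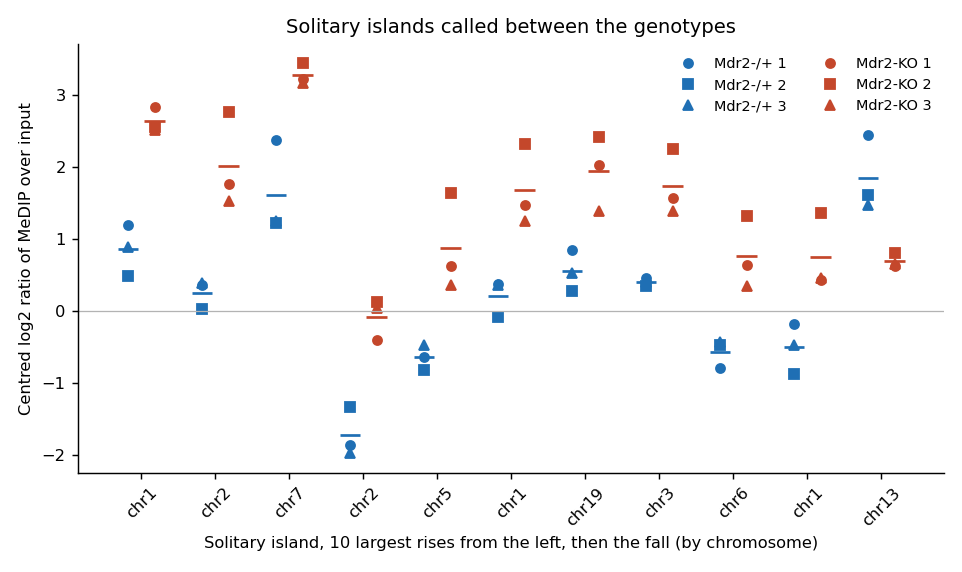
Centred log2 ratio of MeDIP over input (y axis) at the 10 solitary islands with the largest called rises, from the left in order of size, and at the island called lower on chromosome 13 (x axis, labelled by chromosome). Points are livers, with Mdr2-/+ in blue and Mdr2-KO in red and a symbol for each replicate number, and lines are means of 3 livers. At each island the genotypes do not overlap, which was a condition for naming it.

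The 5 islands farthest from any other were no group of their own in level. The farthest, chr14:92773814-92774216, was 5155 kb from its nearest neighbour, had -0.50, -0.50 and -0.56 in Mdr2-/+ and -0.26, -0.65 and -0.39 in Mdr2-KO livers, and did not pass the test (difference 0.09, standard error 0.13). The next, chr8:102304572-102305903, with 12 probes and 3368 kb to its neighbour, had -0.06, 0.01 and 0.20 in Mdr2-/+ and 0.91, 1.84 and 0.74 in Mdr2-KO livers. Its genotypes did not overlap and differed by 1.11 (standard error 0.27), which missed the threshold (adjusted p = 0.0596 from limma). It was called higher without Mdr2-/+ replicate 1 (1.06), with loess (0.86) and with quantile normalization (1.00). The 2 neighbours chr14:107794079-107794350 and chr14:110557017-110558024, 2763 kb apart, had mean Mdr2-/+ levels of -1.45 and 0.22 and differences of 0.48 and 0.14 (limma, adjusted p = 0.0907 at the first, which was called higher at 0.55 without Mdr2-/+ replicate 1). At chr14:107794079 the MeDIP signal was well above background at 1 of 3 probes in each Mdr2-/+ liver and 2 of 3 in each Mdr2-KO liver. With normexp its difference was -0.03. At chr12:96090990-96091771, 2568 kb from any other, the difference was 0.04 (standard error 0.10).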

How the data were processed

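Scanner output of 6 2-colour Agilent mouse CpG island arrays was used. The authors' deposited intensities had been background-subtracted, detrended and scaled by a linear dye factor with Agilent Feature Extraction (10.5.1.1 per the file headers, 8.5.1.1 per the submitters' notes), with no normalization between arrays. The authors also deposited a normalized score per probe, used as an alternative. Its columns were assigned to genotypes only. Log2 ratios (Cy5 MeDIP over Cy3 input) were centred on each array's median, and 90 probes with an outlier flag on any array were left out. Probes were joined at 500 bp, and islands of at least 3 usable probes were averaged and tested with limma 3.58.1 in R 4.3.3, two-sided, with Benjamini-Hochberg adjustment over 13430 islands. The fit was checked on simulated data. Array-level values were tested by exact permutation. The normexp alternative (offset 50) used median spot signals.

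Members, lists and tests were chosen with earlier results of these data known. Named islands were called members without overlap (10 largest rises, all falls), the 5 highest and lowest Mdr2-/+ levels, the 5 most isolated and those next to the limit. Positions are in mm8, the array's design build. Gene names and sequences of that build were not used here.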

Additional observations from a re-analysis of the deposited data

How the results depend on the processing

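The direction of the level, the shift and the share above 1 held under every alternative run for them. Values after division by the SD and with the authors' scores are in those units, not in log2 units. The shares called did not keep their direction. Called higher was a larger share of solitary than of all islands in the setting of the report and a smaller one in some alternatives, given below. The median difference between solitary and other islands missed the test with loess (-0.0569), the authors' scores (-0.0419), the median over probes (-0.0601), at least 5 probes (-0.0217), joining at 1000 bp (-0.0586), a 1000 kb limit (-0.120) and short sites as neighbours (-0.0551), and was -0.0858 to -0.0589 with a liver left out. The shift between genotypes was 0.03 to 0.21 (0.06 to 0.09 with a liver left out), and the share above 1 differed by -8.63 to -8.12 points with a liver left out.

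Beside each share of solitary islands called, the share of all islands under the same setting follows after a slash. Called higher were 4.95% / 4.4% in the setting of the report, 9.82% / 7.87% with bright probes only, 10.3% / 7.29% with quantile normalization, 12.9% / 9.33% after division by the SD, 16.4% / 13.4% with the authors' scores, 9.24% / 6.71% with at least 5 probes, 9.86% / 4.4% at 1000 kb and 17.0% / 11.7% by the methods' t-test at its own threshold. The shares were 3.25% / 3.38% with the median over probes, 2.49% / 2.54% with 3 to 5 probes and 18.5% / 18.9% with array weights. They were 0% / 0% with normexp, 0% / 0.0521% with slide as a fixed block and 0% / 0.0298% by the adjusted t-test. With normexp 111 solitary islands were higher at an unadjusted p under 0.05 from limma, where 1966 of all 13430 islands were. With a liver left out the shares were 0.141% to 17.3% / 0.238% to 19.4%. Called lower were 0.141% / 0.223%, 0.526% / 0.253% with bright probes only, 0.616% / 0.428% with at least 5 probes and 2.69% / 2.79% with quantile normalization. The shares were 1.27% / 1.06% after division by the SD, 2.55% / 3.18% with the authors' scores and 3.96% / 4.19% with array weights. They were 6.08% / 6.01% by the t-test at its own threshold, 0.283% / 0.171% with loess, 0.283% / 0.231% with the median over probes and 0.0907% / 0.223% at 100 kb. None was called lower with normexp (0% / 0%), 3 to 5 probes (0% / 0.0852%), 500 or 1000 kb (0% / 0.223%) and the adjusted t-test (0% / 0.00745%). With normexp 2 solitary islands were lower at an unadjusted p under 0.05 from limma, where 46 of all 13430 islands were. With a liver left out the shares were 0% to 2.40% / 0.00745% to 2.40%. Past delta Z in either direction lay 1.70% / 1.36%, 4.81% / 6.22% with normexp, 0.566% / 0.663% with loess and 4.23% / 1.36% at 1000 kb. The shares past it were 4.53% / 3.45% at a threshold of 0.5 and 4.10% / 2.94% with a robust Z. With a liver left out they were 0.707% to 1.98% / 1.05% to 1.74%. The causes were not tested.

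Deviations from the genotype means correlated at 0.11, -0.10 and 0.12 for equal replicate numbers, which showed no clear pairing. Deviations from a mean of 3 livers are tied to each other, so these values cannot exclude a pairing. With the replicate block limma called 27 solitary islands higher (3.82%, all islands 3.43%) and 0.141% lower (all islands 0.127%). The shift was 0.08 (exact sign-flip permutation p = 0.25, the smallest possible with these pairs).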
